A study of Rattus norvegicus with 12 samples.

Results

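Potassium channel genes outside the Kv1 and Kv3 families were followed through 12 RNA libraries of rat cortical neuron cultures. The genes were all those of the deposited 12-library table whose symbol begins with Kcn but not with Kcna or Kcnc, with the transcript entry of highest mean kept for each symbol. This gave 76 genes of 17339 in the table. Of these, 61 reached 10 read equivalents in 3 libraries or more and were tested, beside 12073 genes tested in all.

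Potassium channels let potassium leave the cell and so set the resting potential, end action potentials and limit how often a neuron fires. The Kcn genes encode pore subunits that open with voltage, with calcium or sodium, under G protein control or at rest, and auxiliary subunits that adjust them. In cortical neurons the M-current, A-type current, inward rectifiers and leak channels are the classic brakes on excitability.

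The cultures came from the cortex of Wistar rats at embryonic day 18, and each of the 4 groups had 3 libraries. The groups were Ehmt1 shRNA knockdown with tetrodotoxin (TTX), Ehmt1 shRNA knockdown untreated, wild-type with TTX and wild-type untreated. TTX is a sodium channel blocker that stops action potentials, and EHMT1 is an enzyme that methylates histone H3 and is affected in Kleefstra syndrome. The study's title names homeostatic synaptic scaling, the adjustment of synapses to a lasting change in activity, as its subject. The TTX dose and duration are not given in the sources used here, the titles name no control hairpin, and what the hairpin does by itself cannot be told apart from what the loss of Ehmt1 does. Knockdown and wild-type are called genotypes here.

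Levels are read equivalents, the deposited base coverage divided by the read length of 42 nt, after the authors' size factors. Before size factors the libraries held 15108848 to 24787516 read equivalents. Longer transcripts collect more of them, so levels are compared between libraries and not between genes. Libraries of a genotype that share a replicate number deviated together and are treated as 1 culture. That pairing is inferred from the values, and whether a pair shared a culture or some other batch cannot be told apart. Ehmt1 itself was at 1187, 1519 and 1162 in knockdown with TTX, 1044, 1535 and 1037 in knockdown untreated, 2039, 1739 and 1839 in wild-type with TTX, and 1772, 1586 and 1599 in wild-type untreated. Every knockdown library lay below every wild-type library, and the difference over both treatments did not pass (log2 -0.51, SE 0.12, adjusted p = 0.127). That fit took no account of the pairing, so its SE and p are likely too low.

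Silencing with TTX lowered 24 of the 61 tested genes and raised 2, over both genotypes and with each culture as its own control. Among all genes tested, 7.54% were lower and 5.47% were higher in that comparison, 13% in either direction. The lowered genes included the Kv4 partners Kcnip4 and Kcnip1, the silent subunits Kcnv1, Kcng2 and Kcnf1, the M-current genes Kcnq3 and Kcnq5, 5 inward rectifiers and 6 leak channels. The raised genes were Kcne5, a small auxiliary subunit, and Kcnt1, the sodium-activated channel Slack. The median log2 change was -0.30 over the 61 genes and 0.02 over all genes tested.

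The test was limma on log2(value + 1) with culture as a term, with p-values adjusted over all 12073 genes. With the 4 groups as the only term, no member passed, against 24 of 12073 genes in all (0.199%), while 24 members had an unadjusted p under 0.05 against 9.87% of all genes. Without culture 1 of the knockdown the count fell to 5, without culture 3 of the knockdown to 12, and without culture 3 of the wild-type to 16. The calls of Kcnf1, Kcnip1, Kcnip4, Kcnj3 and Kcnv1 held under 17 of 18 alternatives, groups alone being the exception.

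**Figure D1:**
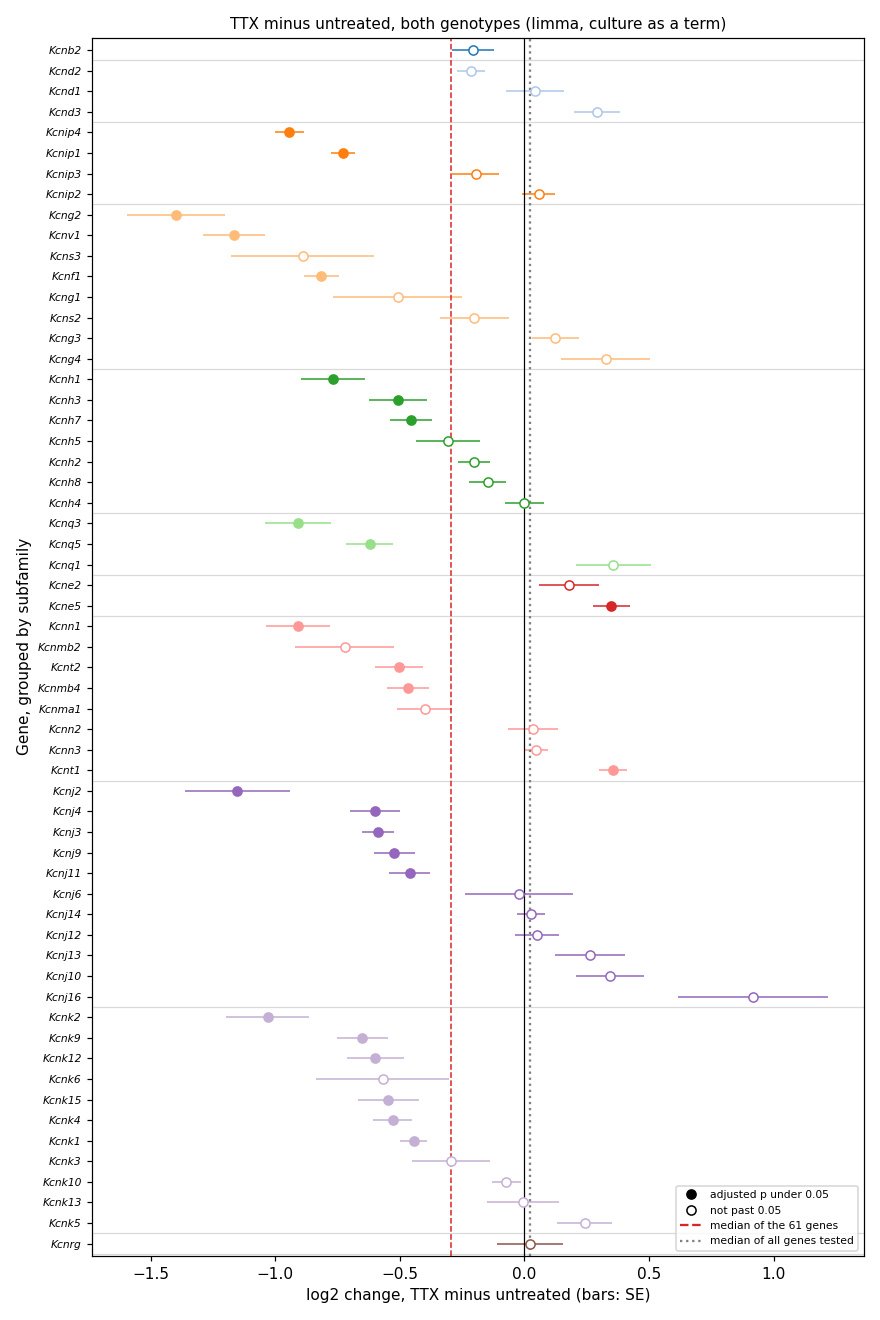
Log2 change with TTX over both genotypes (x axis, bars give the SE) for 59 of the 61 tested genes (y axis), grouped and coloured by subfamily. Filled points pass adjusted p 0.05; 24 lie below 0 and 2 above, and the dashed median of the genes at -0.30 lies left of the dotted median of all genes at 0.02.

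Read by culture, 28 of the 61 genes were lower with TTX in 6 of 6 cultures, against 11.7% of all genes, and 5 were higher in 6 of 6, against 11.8%. Taking all libraries together, 4 genes had every TTX library below every untreated one, against 0.754% of all genes. These 4 were Kcng2, Kcnj9, Kcnk2 and Kcnv1. No share over all genes is given for groups that separate within a single genotype or treatment, so such statements below only describe the values.

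RNA of whole cultures was measured, so fewer cells of a type and less RNA per cell cannot be told apart. The 6 cortical neuron markers (Rbfox3, Map2, Tubb3, Syn1, Snap25, Stmn2) were all below 0 with TTX, with a median log2 change of -0.31, and 3 of them passed. Their summed level ran from 55333 to 86334 in knockdown with TTX against 71373 to 105686 in knockdown untreated, and from 53294 to 60599 in wild-type with TTX against 67121 to 77039 in wild-type untreated. Of 12 GABAergic markers 6 fell (median -0.49), of 8 glutamatergic markers 3 fell and 1 rose (median -0.25), and of 8 progenitor and dividing-cell markers 4 rose (median 0.30). Of 9 tested astrocyte markers none passed (median 0.18), and of 11 oligodendrocyte-lineage markers 1 rose (median 0.10). The shares over all genes with TTX over both genotypes were 7.54% lower and 5.47% higher. Microglial markers summed to at most 184 in any library, and the endothelial marker Cdh5 was at 0 in all 12. The part of these shifts in the channel changes was not tested. Rescaling every library to the 6 neuron markers, an alternative chosen after seeing the data, moved the median of all genes to 0.32 and that of the 61 to 0.00. On that scale 16 of the 61 were lower, against 2.61% of all genes, and 21 were higher, against 67.4% (70% of all genes in either direction). All 16 lower genes and 2 of the higher, Kcne5 and Kcnt1, were among the 26 calls on the authors' scale, the other 19 higher genes were not, and 8 of the 26 calls ended. The 16 had changes from -1.10 to -0.23 on that scale, and each call that ended is marked beside its gene. Lower against higher calls on that scale were 4 against 2 among Kcnk genes, 3 against 2 among silent subunits, 2 against 1 among Kcnip genes, 2 against 2 among Kcnq genes, 1 against 1 among Kcnh genes, 3 against 5 among Kcnj genes, and 1 against 3 among calcium- or sodium-activated channels. They were 0 against 2 among both the Kcnd and the Kcne genes, and 1 further gene was higher. The counts by subfamily given next are on the authors' scale.

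The Kv4 channel carries the A-type current, and the Kcnip genes encode its calcium-sensing auxiliary subunits, the KChIPs. Of 4 tested Kcnip genes 2 fell with TTX, against 7.54% of all genes, and of 3 Kcnd pore genes none passed on the authors' scale. Kcnip4 (NM_181365), whose change had the smallest p among the 61, stood at 131, 116 and 70.5 with TTX against 219, 178 and 128 untreated in knockdown, and 65, 75 and 64.9 with TTX against 157, 152 and 149 untreated in wild-type. Each culture was lower with TTX, and in wild-type the TTX libraries all lay below the untreated ones. Kcnip4 was 1.92-fold lower with TTX over both genotypes (log2 -0.94, SE 0.06, adjusted p = 0.00305). Kcnip1 (NM_001261389) measured 238, 214 and 191 with TTX against 389, 366 and 293 untreated in knockdown, and 143, 114 and 168 with TTX against 235, 186 and 308 untreated in wild-type. Its TTX and untreated libraries did not overlap within either genotype, and it was 1.66-fold lower with TTX over both genotypes (log2 -0.73, SE 0.05, adjusted p = 0.00306). All 4 deposited transcript entries of Kcnip1 gave changes between -0.73 and -0.72.

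The other members of the Kv4 complex stayed closer to 0 on the authors' scale. Kcnip2 (NM_020094) read 268, 271 and 258 with TTX against 286, 249.7 and 286 untreated in knockdown, and 177, 233 and 331 with TTX against 143, 202 and 339.8 untreated in wild-type. The groups overlapped, with a log2 change of 0.06 (SE 0.07, adjusted p = 0.6), though on the neuron-marker scale Kcnip2 was higher (0.36, adjusted p = 0.00354). Kcnip3, also known as a calcium-binding transcriptional repressor, averaged 128 with a log2 change of -0.20. Kcnd3 (NM_001270962), another Kv4 pore gene, read 1281, 1344 and 1003 with TTX against 1167, 1175 and 824 untreated in knockdown, and 1609, 1138 and 2006 with TTX against 957, 1085 and 1615 untreated in wild-type. It was higher with TTX in 6 of 6 cultures, and its log2 change of 0.29 (SE 0.09, adjusted p = 0.0879) did not pass, though on the neuron-marker scale it was higher (0.59, adjusted p = 0.00285). Kcnd2, the main dendritic Kv4 pore gene, averaged 861 and was lower in 6 of 6 cultures (-0.21, SE 0.06, adjusted p = 0.054). On the neuron-marker scale Kcnd2 was at 0.09 (adjusted p = 0.197) and Kcnip3 at 0.10 (adjusted p = 0.259). Kcnd1 averaged 168 with a log2 change of 0.04, and it too was higher on the neuron-marker scale (0.34, adjusted p = 0.0269). On that scale 67.4% of all genes were higher and the median of all genes was 0.32, so Kcnip2 and Kcnd1 lay near that median.

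Kv2 channels carry the slow delayed rectifier, and the silent subunits Kcnf, Kcng, Kcns and Kcnv form channels by joining Kv2 subunits. Of 8 tested silent subunits 3 fell, against 7.54% of all genes. Kcnb2, a Kv2 pore gene, averaged 376 with a log2 change of -0.21, which did not pass.

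Kcnf1 (NM_001169104) read 657, 564 and 351 with TTX against 1110.1, 782 and 594 untreated in knockdown, and 409.6, 438 and 352 with TTX against 728, 818 and 796 untreated in wild-type. Wild-type TTX libraries all lay below untreated ones, and the gene was 1.76-fold lower with TTX over both genotypes (log2 -0.81, SE 0.07, adjusted p = 0.00495). Kcnv1 (NM_021697) read 205, 188 and 115 with TTX against 456, 310.3 and 293 untreated in knockdown, and 139, 114 and 141 with TTX against 257, 269 and 454 untreated in wild-type. All 6 TTX libraries lay below all 6 untreated libraries, and Kcnv1 was 2.25-fold lower with TTX over both genotypes (log2 -1.17, SE 0.12, adjusted p = 0.00681). Kcng2 (NM_001107372) was at 54.5, 40.6 and 22.1 with TTX against 105, 89.6 and 84.1 untreated in knockdown, and 25.9, 52.1 and 25.4 with TTX against 106, 87.1 and 86.1 untreated in wild-type. It also separated all TTX from all untreated libraries and had the most negative change of the 61 genes, 2.63-fold lower with TTX over both genotypes (log2 -1.40, SE 0.20, adjusted p = 0.0119).

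Among the other silent subunits Kcns3 averaged 58.2 with a log2 change of -0.89 (SE 0.29, adjusted p = 0.0923), and Kcng1 averaged 222 with a log2 change of -0.51. Kcns2, Kcng3 and Kcng4 had log2 changes of -0.20, 0.12 and 0.33, none of which passed. Kcnrg, which encodes a soluble protein that can suppress Kv channels, read 64, 58.4 and 46.8 with TTX against 69.3, 81.2 and 55.4 untreated in knockdown, and 73.7, 60.9 and 81.5 with TTX against 40.9, 70.2 and 64.7 untreated in wild-type. The groups overlapped in both genotypes, with a log2 change of 0.02 (SE 0.13, adjusted p = 0.926).

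The Kcnh genes encode the EAG, ERG and ELK channels, voltage-gated channels with a cytoplasmic cyclic-nucleotide-binding-like domain. Of 7 tested genes 3 fell with TTX and none rose, against 7.54% lower and 5.47% higher over all genes. Kcnh1 (NM_031742), the EAG channel, stood at 269.8, 173 and 109.5 with TTX against 449, 351 and 187 untreated in knockdown, and 141, 171 and 208 with TTX against 156, 385 and 357 untreated in wild-type. It was lower in 6 of 6 cultures, with overlap between the groups of each genotype, and was 1.7-fold lower with TTX over both genotypes (log2 -0.77, SE 0.13, adjusted p = 0.018). Kcnh3 (NM_017108), an ELK channel of forebrain, stood at 1468, 1286 and 720.2 with TTX against 2189, 1555 and 1218 untreated in knockdown, and 962, 934 and 712 with TTX against 1089.6, 1157 and 1367 untreated in wild-type. Kcnh7 (NM_131912), an ERG channel, stood at 490.4, 498 and 249 with TTX against 722, 604 and 303 untreated in knockdown, and 334, 269 and 359 with TTX against 392, 455 and 555 untreated in wild-type. In wild-type both genes had every TTX library below every untreated one, while the knockdown libraries overlapped. Kcnh3 was 1.42-fold lower with TTX over both genotypes (log2 -0.51, SE 0.12, adjusted p = 0.0408), and Kcnh7 was 1.37-fold lower with TTX over both genotypes (log2 -0.46, SE 0.08, adjusted p = 0.0225). Both calls ended on the neuron-marker scale, for Kcnh3 at -0.21, adjusted p = 0.082 and for Kcnh7 at -0.16, adjusted p = 0.105. Kcnh2, the ERG channel best known from heart, averaged 355 with a log2 change of -0.20 (adjusted p = 0.0843). Kcnh5, Kcnh8 and Kcnh4 had log2 changes of -0.31, -0.15 and -0.00, and none passed.

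Kcnq3 and Kcnq5 encode subunits of the M-current, a slow non-inactivating current that muscarinic receptors close, and mutations of Kcnq3 cause neonatal epilepsy in humans. Of the 4 tested Kcnq genes, Kcnq3 and Kcnq5 fell, against 7.54% of all genes. Kcnq3 (NM_031597) stood at 1526, 1137 and 546 with TTX against 3077, 2345 and 822 untreated in knockdown, and 969.9, 933 and 987 with TTX against 1386, 1653 and 2740.2 untreated in wild-type. Every culture was lower with TTX, and the wild-type groups did not overlap. Kcnq3 was 1.88-fold lower with TTX over both genotypes (log2 -0.91, SE 0.13, adjusted p = 0.0127). Kcnq5 (NM_001134643) stood at 977, 752 and 473 with TTX against 1609, 1155 and 702 untreated in knockdown, and 583, 568 and 676 with TTX against 769, 1161 and 888 untreated in wild-type. Again the wild-type groups did not overlap, and Kcnq5 was 1.54-fold lower with TTX over both genotypes (log2 -0.62, SE 0.10, adjusted p = 0.0141).

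Kcnq1, known from heart and epithelia, was near the filter at 14.1, 14.2 and 6.10 with TTX against 14.2, 27.1 and 5.05 untreated in knockdown, and 7.37, 9.56 and 16.3 with TTX against 3.13, 3.91 and 9.85 untreated in wild-type. Wild-type cultures were each higher with TTX and 2 of 3 knockdown cultures were lower, with a log2 change of 0.36 (SE 0.15, adjusted p = 0.172). Kcne genes encode single-pass subunits that join Kcnq1 and other pores, and 2 of 5 were tested. Kcne5 (NM_001101003) stood at 1335, 1109 and 1593 with TTX against 989, 1089 and 1450.2 untreated in knockdown, and 850.3, 1503 and 1101 with TTX against 552, 1017 and 885 untreated in wild-type. It was higher with TTX in 6 of 6 cultures, the groups overlapped, and the log2 change of 0.35 (SE 0.07, adjusted p = 0.0338) passed. Kcne2 averaged 44 with a log2 change of 0.18.

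**Figure D2:**
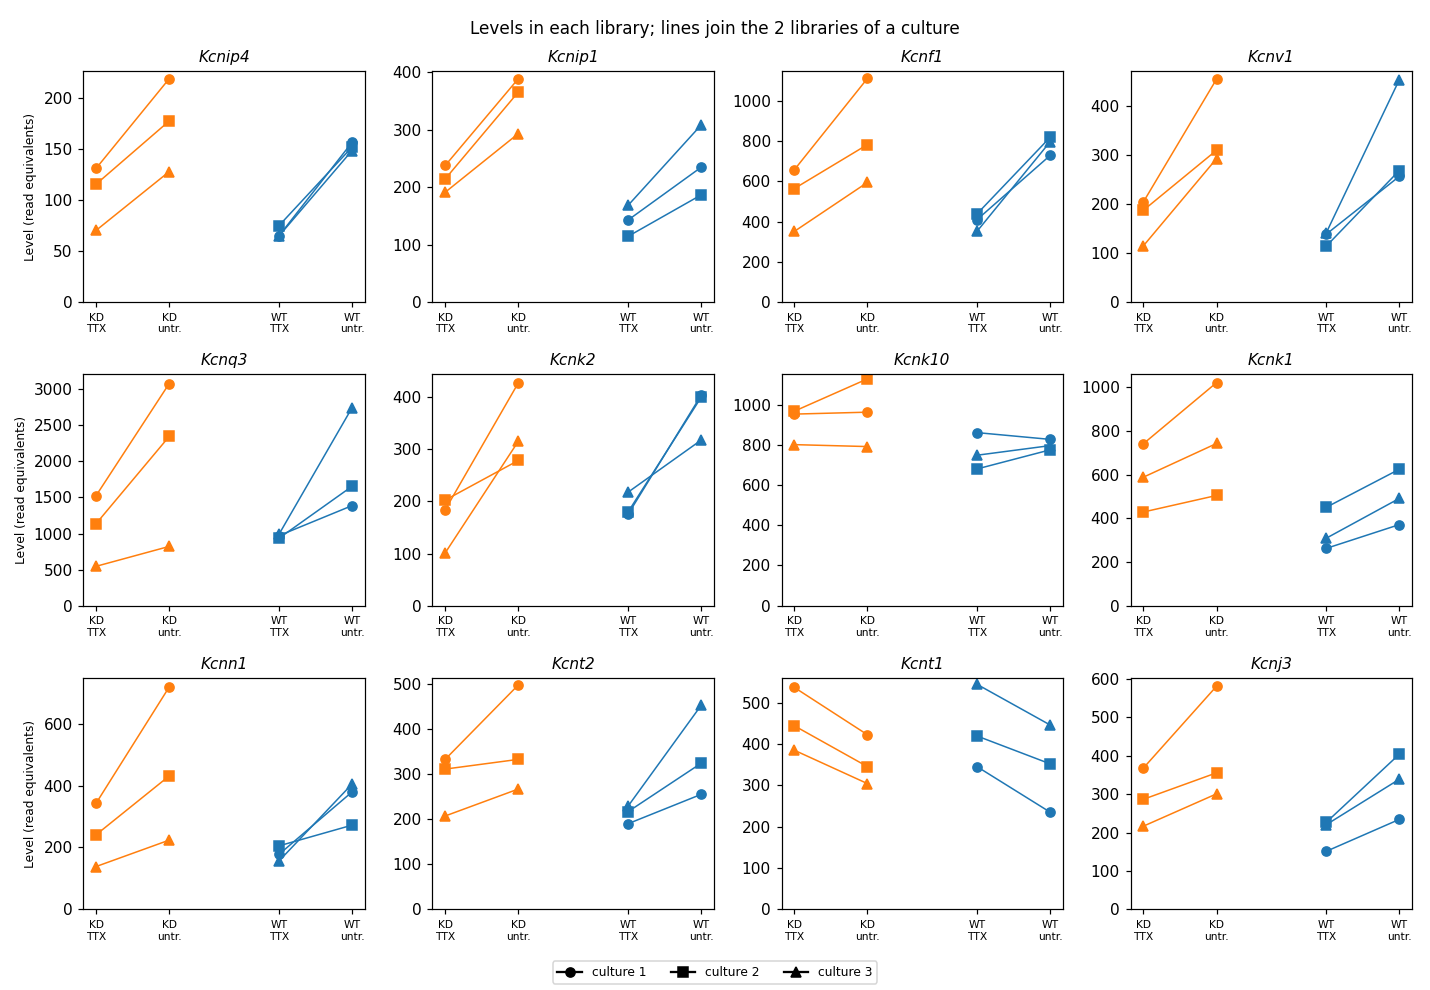
Level in read equivalents (y axis, from 0) of 12 of the genes in each library, with knockdown in orange and wild-type in blue, TTX left of untreated; lines join the libraries of a culture and symbols give the culture number. The lines of Kcnip4, Kcnip1, Kcnf1, Kcnv1, Kcnq3, Kcnk2, Kcnk1, Kcnn1, Kcnt2 and Kcnj3 climb towards untreated in all 6 cultures, those of Kcnt1 run the other way, and those of Kcnk10 run both ways.

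Channels gated by calcium or sodium limit firing after a spike. Kcnma1 is the pore of the large-conductance BK channel, Kcnmb genes its auxiliary subunits, Kcnn genes the small-conductance SK channels, and Kcnt1 and Kcnt2 the sodium-activated Slack and Slick channels. Of 8 tested genes 3 fell and 1 rose, against 7.54% lower and 5.47% higher over all genes. Kcnn1 (NM_019313) stood at 343, 241 and 138 with TTX against 719, 431 and 224 untreated in knockdown, and 177, 205 and 156 with TTX against 379, 272 and 405 untreated in wild-type. Every culture was lower with TTX, the wild-type groups did not overlap, and the gene was 1.88-fold lower with TTX over both genotypes (log2 -0.91, SE 0.13, adjusted p = 0.0119). Kcnn2 and Kcnn3 averaged 567 and 311, with log2 changes of 0.03 and 0.05.

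Kcnt2 (NM_198762) stood at 334, 312 and 208 with TTX against 499, 334 and 268 untreated in knockdown, and 190.4, 217 and 229 with TTX against 256, 325 and 453 untreated in wild-type. Kcnt1 (NM_021853) stood at 537, 444 and 385 with TTX against 422, 345 and 304 untreated in knockdown, and 345, 419 and 544 with TTX against 235, 352 and 446 untreated in wild-type. The paralogues moved in opposite directions in 6 of 6 cultures. Kcnt2 was 1.42-fold lower with TTX over both genotypes (log2 -0.50, SE 0.10, adjusted p = 0.0241), and Kcnt1 was 1.28-fold higher (0.36, SE 0.06, adjusted p = 0.015). The call of Kcnt2 ended on the neuron-marker scale (-0.20, adjusted p = 0.0507). Kcnmb4 (NM_023960), the neuronal BK auxiliary subunit, stood at 738, 861 and 641 with TTX against 1131, 1067 and 842 untreated in knockdown, and 810.1, 696 and 598 with TTX against 1292, 791 and 923 untreated in wild-type. Its groups overlapped within each genotype although every culture was lower, and it was 1.38-fold lower with TTX over both genotypes (log2 -0.47, SE 0.08, adjusted p = 0.0202). On the neuron-marker scale that call ended (-0.17, adjusted p = 0.134). Kcnma1 (NM_031828) stood at 1575, 1325 and 717 with TTX against 2299, 1751 and 944 untreated in knockdown, and 1183, 1018 and 1278 with TTX against 1063, 1541 and 1947 untreated in wild-type. It was lower in 5 of 6 cultures, and the log2 change of -0.40 (SE 0.11, adjusted p = 0.0635) did not pass. Kcnmb2 averaged 23.6 with a log2 change of -0.72 (SE 0.20, adjusted p = 0.0622).

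The Kcnj genes encode inward rectifiers, which pass potassium most easily near rest. Among 11 tested genes 5 fell and none rose, against 7.54% lower and 5.47% higher over all genes. The subfamily spanned the widest range of the groups, from -1.15 for Kcnj2 to 0.92 for Kcnj16. Kcnj3 and Kcnj9 are subunits of the G-protein-gated GIRK channels, which carry slow inhibition through GABA-B and other receptors. Kcnj3 (NM_031610) stood at 368, 287 and 217 with TTX against 581, 355 and 301 untreated in knockdown, and 151, 226 and 220.3 with TTX against 234, 404 and 339 untreated in wild-type. Kcnj9 (NM_053834) stood at 321, 300.2 and 223 with TTX against 445, 384 and 417 untreated in knockdown, and 231, 282 and 257 with TTX against 345, 399.7 and 327 untreated in wild-type. All 6 TTX libraries lay below all 6 untreated ones for Kcnj9, while for Kcnj3 the wild-type groups separated and the knockdown groups overlapped. Kcnj3 was 1.5-fold lower with TTX over both genotypes (log2 -0.59, SE 0.06, adjusted p = 0.00726), and Kcnj9 was 1.44-fold lower with TTX over both genotypes (log2 -0.52, SE 0.08, adjusted p = 0.015), a call that ended on the neuron-marker scale (-0.22, adjusted p = 0.0644). Kcnj6, the other main neuronal GIRK subunit, averaged 655 with a log2 change of -0.02 (SE 0.21), while Kcnj5 was not tested.

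Kcnj2 and Kcnj4 encode strong rectifiers of the classical Kir2 type. Kcnj4 (NM_053870) stood at 673, 608 and 347 with TTX against 883, 650.2 and 625 untreated in knockdown, and 410.4, 517 and 391 with TTX against 705, 803 and 709 untreated in wild-type. Kcnj2 (NM_017296) stood at 18.8, 13.3 and 8.19 with TTX against 34.1, 25 and 18.3 untreated in knockdown, and 16.4, 7.89 and 14.7 with TTX against 24.3, 43.3 and 37.6 untreated in wild-type. In wild-type both genes had all TTX libraries below all untreated ones. Kcnj4 was 1.52-fold lower with TTX over both genotypes (log2 -0.60, SE 0.10, adjusted p = 0.017), and Kcnj2 was 2.22-fold lower with TTX over both genotypes (log2 -1.15, SE 0.21, adjusted p = 0.0221). Kcnj12 and Kcnj14, of the same type, had log2 changes of 0.05 and 0.03.

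Kcnj11 (NM_031358), the pore of the ATP-sensitive channel, stood at 137, 144 and 87 with TTX against 196, 160.0 and 128 untreated in knockdown, and 115, 144 and 86.8 with TTX against 164, 179.9 and 145 untreated in wild-type. Its wild-type groups separated and its knockdown groups overlapped, and it was 1.38-fold lower with TTX over both genotypes (log2 -0.46, SE 0.08, adjusted p = 0.0197). Its call also ended on the neuron-marker scale (-0.16, adjusted p = 0.0899). Abcc8, which encodes the sulfonylurea receptor that joins this pore, fell as well (log2 -0.64, SE 0.05, adjusted p = 0.00481). Kcnj10 (NM_031602), the main glial inward rectifier, stood at 2631, 1557 and 2742 with TTX against 2569, 1439.6 and 2314 untreated in knockdown, and 1570.3, 1972 and 2925 with TTX against 701, 1889 and 2161 untreated in wild-type. The groups overlapped, with a log2 change of 0.34 (SE 0.14, adjusted p = 0.153), beside the astrocyte median of 0.18. Kcnj16, which pairs with Kcnj10, averaged 26.8 with a log2 change of 0.92 (SE 0.30, adjusted p = 0.0973). Kcnj13 had a log2 change of 0.26 and did not pass.

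Some Kcnj genes are neighbours among these genes on the GRCr8 assembly. Kcnj16 and Kcnj2 lie next to each other on chromosome 10, with changes of 0.92 and -1.15. Kcnj9 and Kcnj10 lie next to each other on chromosome 13, with changes of -0.52 and 0.34. Only Kcnj2 and Kcnj9 of these 4 passed.

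The Kcnk genes encode tandem-pore (K2P) leak channels, which are open at rest and respond to stretch, lipids, pH or anaesthetics. Of 11 tested genes 6 fell with TTX and none rose, against 7.54% lower and 5.47% higher over all genes. Kcnk2 (NM_172042), the TREK1 channel, stood at 184, 202 and 101 with TTX against 427, 278 and 315 untreated in knockdown, and 175, 179 and 217 with TTX against 403, 399 and 317 untreated in wild-type. All 6 TTX libraries lay below all 6 untreated ones, and Kcnk2 was 2.04-fold lower with TTX over both genotypes (log2 -1.03, SE 0.17, adjusted p = 0.0158). Its other deposited transcript entry, at a mean of 123 against 266, had a log2 change of -0.93. Kcnk4 (NM_053804), the related mechanosensitive TRAAK channel, stood at 96.7, 97.9 and 39.2 with TTX against 142, 115 and 66.5 untreated in knockdown, and 57.8, 87.1 and 63.7 with TTX against 78.8, 131 and 99.3 untreated in wild-type. The groups overlapped, every culture was lower, and Kcnk4 was 1.44-fold lower with TTX over both genotypes (log2 -0.53, SE 0.08, adjusted p = 0.0123). Kcnk10 (NM_023096), the TREK2 channel, stood at 952, 967 and 801 with TTX against 962, 1127 and 791 untreated in knockdown, and 860.3, 679.8 and 748 with TTX against 827, 775 and 796 untreated in wild-type. It showed no separation of groups, with a log2 change of -0.07 (SE 0.06, adjusted p = 0.438).

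Kcnk1 (NM_021688), the TWIK1 channel, stood at 742, 429 and 589 with TTX against 1022, 505 and 743 untreated in knockdown, and 263, 451 and 309 with TTX against 371, 625 and 491 untreated in wild-type. Culture 2 of the knockdown was low in both states, and each culture was lower with TTX. Kcnk1 was 1.36-fold lower with TTX over both genotypes (log2 -0.44, SE 0.05, adjusted p = 0.00934), which ended as a call on the neuron-marker scale (-0.14, adjusted p = 0.0611). Kcnk9 (NM_053405), the acid-sensitive TASK3 channel, stood at 595, 374 and 269 with TTX against 914, 393 and 469 untreated in knockdown, and 189.5, 243 and 276 with TTX against 323, 472 and 444 untreated in wild-type. Wild-type groups separated, knockdown groups overlapped, and Kcnk9 was 1.57-fold lower with TTX over both genotypes (log2 -0.65, SE 0.10, adjusted p = 0.0148).

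Kcnk12 (NM_022292), a THIK channel, stood at 182, 148 and 125 with TTX against 278, 197 and 234 untreated in knockdown, and 140.3, 141 and 125 with TTX against 153, 226 and 229 untreated in wild-type. Kcnk15 (NM_130813), a TASK relative not known to conduct on its own, stood at 195, 189 and 83.2 with TTX against 245, 272 and 180.1 untreated in knockdown, and 165, 126 and 193 with TTX against 182, 209 and 265 untreated in wild-type. Kcnk12 separated its groups within each genotype, whereas Kcnk15 overlapped in both. Kcnk12 was 1.51-fold lower with TTX over both genotypes (log2 -0.60, SE 0.11, adjusted p = 0.0239), and Kcnk15 was 1.46-fold lower with TTX over both genotypes (log2 -0.55, SE 0.12, adjusted p = 0.0382). On the neuron-marker scale the call of Kcnk15 ended (-0.25, adjusted p = 0.0878). Kcnk3, the TASK1 channel, averaged 88.4 with a log2 change of -0.30, while Kcnk13 and Kcnk5 had log2 changes of -0.00 and 0.24. Kcnk6 was near the filter at 7.74, 9.15 and 14.1 with TTX against 21.4, 7.41 and 9.13 untreated in knockdown, and 8.18, 10.5 and 4.01 with TTX against 12.8, 19.8 and 12.9 untreated in wild-type. Its change was -0.57 (SE 0.27, adjusted p = 0.206), and only the wild-type groups separated.

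Annotated spans of some lowered members overlap another named protein-coding gene on GRCr8, and the sources used here do not say whether the deposited values were counted by strand, though the libraries kept it. Kcnh3 overlaps Mcrs1 (log2 -0.16, adjusted p = 0.068), Kcnh7 overlaps Gca (0.28), Kcnj9 overlaps Igsf8 (-0.07) and Kcnk15 overlaps Rims4 (-0.22). None of these 4 neighbours passed with TTX. Kcnip1 overlaps Kcnmb1, which was at 0 in 11 of 12 libraries.

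Partner subunits and close paralogues were then set against each other within each culture, since a ratio of 2 genes in a library does not depend on how libraries were scaled. The 12 pairs tested were chosen with the members' changes known, and 9 of them are described. Each p comes from an exact two-sided sign-flip permutation test over 6 cultures, which can go no lower than 0.03125, and was adjusted over the 12 pairs. In 6 of the 9 the ratio moved the same way in 6 of 6 cultures (exact permutation p = 0.03125, adjusted p = 0.0417). Because the pairs were chosen with the changes in these same cultures known, these p-values are descriptions and add no independent support to the calls.

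For the Kv4 complex, Kcnip4 fell relative to Kcnd2 by a mean of 0.73 on the log2 scale (SD 0.31, n = 6 cultures), and Kcnd3 was higher relative to Kcnd2 by 0.50 (SD 0.20). In single cultures the ratio of Kcnip4 to Kcnd2 changed by -0.38, -0.47 and -0.56 in knockdown and by -1.21, -0.85 and -0.90 in wild-type.

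Among paralogues, Kcnk2 relative to Kcnk10 changed by -0.96 (SD 0.53), Kcnn1 relative to Kcnn2 by -0.94 (SD 0.40), Kcnt2 relative to Kcnt1 by -0.86 (SD 0.27), and Kcnh1 relative to Kcnh2 by -0.57 (SD 0.35). The remaining 3 ratios did not pass. Kcnj3 relative to Kcnj6 had a mean difference of -0.56 (SD 0.64) and was lower in 5 of 6 cultures (exact permutation p = 0.0625, adjusted p = 0.075). Kcnk9 relative to Kcnk3 had a mean difference of -0.36 (SD 0.49, lower in 5 of 6 cultures, exact permutation p = 0.125, adjusted p = 0.136). For the BK channel, Kcnmb4 relative to Kcnma1 had a mean difference of -0.07 (SD 0.41), with 3 cultures on each side of 0 (exact permutation p = 0.8125, adjusted p = 0.8125).

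**Figure D3:**
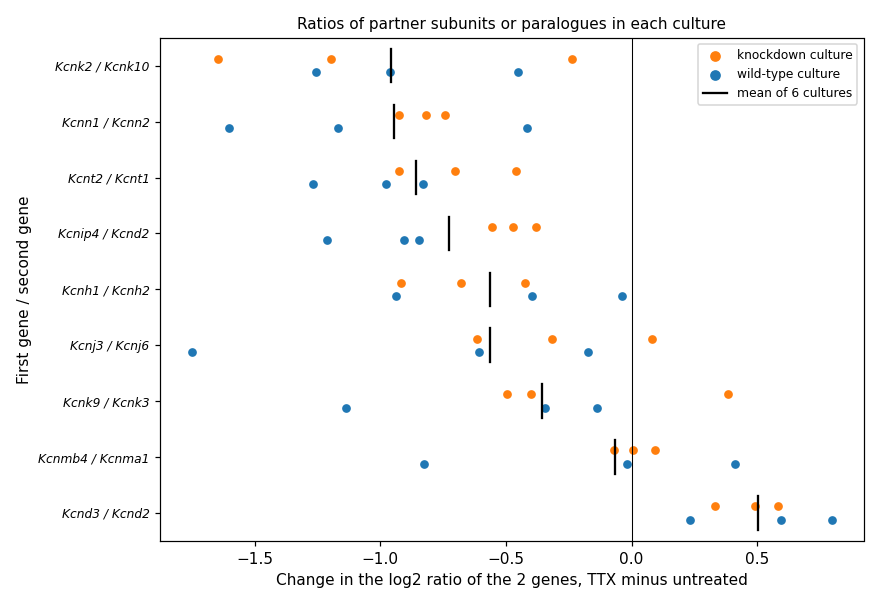
Change of the log2 ratio of the first to the second gene of each of 9 pairs (y axis) with TTX minus untreated (x axis), as 1 point per culture, knockdown in orange above wild-type in blue, with a black mark at the mean of 6 cultures. In 5 pairs all 6 points lie below 0 and in Kcnd3 to Kcnd2 all 6 lie above, while the points of Kcnj3 to Kcnj6, Kcnk9 to Kcnk3 and Kcnmb4 to Kcnma1 lie on both sides.

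Within single genotypes fewer members passed. In knockdown 2 of 61 fell with TTX, Kcnip1 and Kcnip4, and none rose, against 0.439% of all genes for lower calls and 0.514% in either direction. In wild-type 9 of 61 fell and none rose, against 2.34% of all genes for lower calls and 3.18% in either direction. The 9 were Kcnf1, Kcng2, Kcnip1, Kcnip4, Kcnj3, Kcnj4, Kcnk1, Kcnk9 and Kcnv1. Kcnip4 changed by -0.73 in knockdown (adjusted p = 0.0411) and by -1.15 in wild-type (adjusted p = 0.00918), and Kcnip1 by -0.70 (adjusted p = 0.0411) and -0.76 (adjusted p = 0.0182). With groups alone none of the 61 passed in either genotype, where 0% of all genes passed in knockdown and 0.0331% in wild-type. At an unadjusted p under 0.05 there were 9 of the 61 in knockdown, against 3.7% of all genes, and 17 in wild-type, against 5.65%. Leaving out 1 culture gave 0 to 4 calls in knockdown and 1 to 3 in wild-type, so every culture left out moved both counts by over 1.5 times.

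A call in wild-type and not in knockdown is no sign that the genotypes differed, and the difference was tested as an interaction. None of the 61 passed it, as none of the 12073 genes did, and with the 4 groups as the only term none had an unadjusted p under 0.05, against 0.439% of all genes. With culture as a term none passed either (0% of all genes), and 3 members had an unadjusted p under 0.05, against 3.77% of all genes. These were Kcnq1 (unadjusted p = 0.00804), Kcnip4 (0.0102) and Kcnk5 (0.0334), each with adjusted p = 0.974. In the fit of groups alone the 3 members with the smallest p had adjusted p = 1.00. Kcnrg had a difference of -0.59 (SE 0.32, unadjusted p = 0.0921), Kcnq1 of -1.15 (SE 0.81) and Kcnk6 of 0.80 (SE 0.58). For Kcnip4 the knockdown change minus the wild-type change was 0.42, with SE 0.34 from groups alone and SE 0.12 with culture as a term. Its changes by culture were -0.74, -0.61 and -0.85 in knockdown against -1.26, -1.01 and -1.18 in wild-type, with no overlap between the genotypes. The share of all genes without such overlap was not computed, so this only describes the values, and neither interaction test passed for Kcnip4. The TTX change had the same sign in both genotypes for 49 of 61 members, against 71.7% of all genes. Across the 61 genes the changes in the genotypes, which share no library, correlated at 0.85 by both Pearson and Spearman, beside a Pearson r of 0.60 over all genes tested. Genes of 1 library set are not independent, so these are descriptions.

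**Figure D4:**
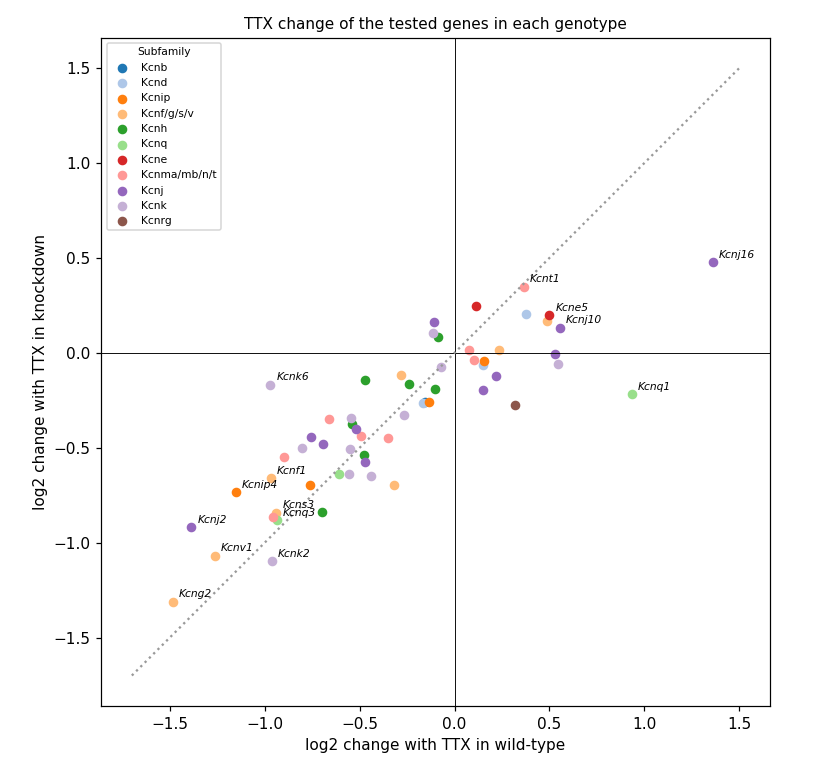
Log2 change with TTX in wild-type (x axis) and in knockdown (y axis) for 59 of the 61 tested genes, coloured by subfamily, with the dotted line marking equal change. Most points lie in the lower left with Kcng2, Kcnv1, Kcnj2 and Kcnk2 farthest from 0, while Kcnq1 and Kcnj16 lie to the right of the line.

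The knockdown itself moved no member past the threshold. In untreated and in TTX-treated cultures none of the 61 passed (0% of all genes in each), and over both treatments none passed against 0.0248% of all genes. At an unadjusted p under 0.05 there were 1, 4 and 6 members in these 3 comparisons, against 6.1%, 8.17% and 16.8% of all genes. The fit over both treatments had groups as its only term and took no account of the inferred pairing within cultures. Its SEs and p-values, here and in the next paragraphs, are therefore likely too low, and its unadjusted counts too high. With culture averages, or with the replicate block as a random effect, no member passed over both treatments either. Over both treatments 45 of 61 estimates lay above 0, against 50.1% of all genes, with a median of 0.17 against 0.00. Without the untreated library of knockdown culture 1 the median was 0.08 and 38 lay above 0, and without the TTX library of that culture it was 0.11, again with 38 above 0. The 6 cortical neuron markers were all above 0 in knockdown over both treatments with a median of 0.35, and 9 of 11 oligodendrocyte-lineage markers were below 0 with a median of -1.65. Their part in the channel values was not tested. On the scale set by the neuron markers the members' median was -0.22 and that of all genes -0.39.

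On the authors' scale Kcnip1 came nearest, at 389, 366 and 293 in knockdown against 235, 186 and 308 in wild-type when untreated, and 238, 214 and 191 against 143, 114 and 168 with TTX. The untreated groups overlapped, while with TTX every knockdown library lay above every wild-type one. The difference over both treatments was 0.57 (SE 0.15, adjusted p = 0.136). Kcnk1 read 1022, 505 and 743 in knockdown against 371, 625 and 491 in wild-type when untreated, and 742, 429 and 589 against 263, 451 and 309 with TTX. The difference over both treatments was 0.68 (SE 0.22, adjusted p = 0.191). Kcnk9, at 914, 393 and 469 in knockdown against 323, 472 and 444 in wild-type when untreated, and 595, 374 and 269 against 189.5, 243 and 276 with TTX, had a difference of 0.59 (SE 0.25, adjusted p = 0.272). The highest values of both Kcnk genes were in culture 1 of the knockdown. On the neuron-marker scale the differences were 0.18 for Kcnip1, 0.29 for Kcnk1 and 0.20 for Kcnk9, and none passed.

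Kcnj12, a strong rectifier, was the member with the smallest p among those lower in knockdown, at 109, 129 and 95.7 in knockdown against 130.1, 113 and 179 in wild-type when untreated, and 95.7, 104 and 106 against 185, 119 and 191 with TTX. The untreated groups overlapped, while with TTX every knockdown library lay below every wild-type one. The Kcnj12 difference over both treatments was -0.49 (SE 0.15, adjusted p = 0.18). On the neuron-marker scale the Kcnj12 difference was -0.89 and that of Kcnk2 -0.61, each with adjusted p = 0.0741, where the median of all genes was -0.39. Kcnk10 read 962, 1127 and 791 in knockdown against 827, 775 and 796 in wild-type when untreated, and 952, 967 and 801 against 860.3, 679.8 and 748 with TTX. The difference over both treatments was 0.25 (SE 0.11, adjusted p = 0.274). By subfamily, all 4 Kcnip, all 4 Kcnq and all 8 calcium- or sodium-activated genes had estimates above 0, with medians of 0.43, 0.18 and 0.21, whereas on the scale of the neuron markers 2, 1 and 0 of them were above 0, with medians of 0.04, -0.21 and -0.18.

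**Figure D5:**
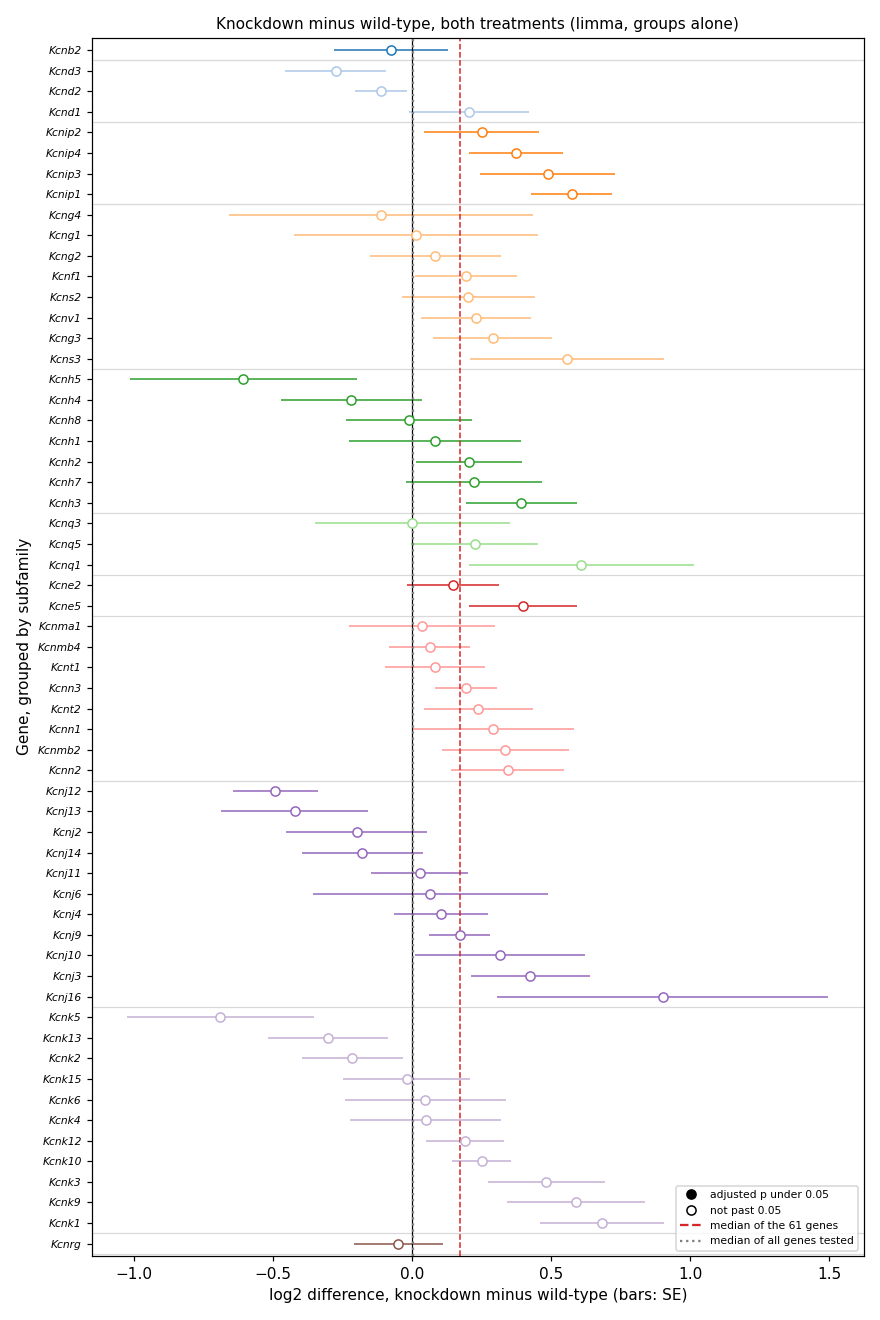
Log2 difference of knockdown minus wild-type over both treatments (x axis, bars give the SE from groups alone) for 59 of the 61 tested genes (y axis), grouped and coloured by subfamily. No point is filled, since none passes adjusted p 0.05, and the dashed median of the genes lies at 0.17, right of the dotted median of all genes at 0.00.

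The authors' deposited tables give a z and a p for each gene, without saying whether that p was adjusted. In the authors' deposited table for knockdown with TTX against knockdown untreated, 14 of 61 genes had a p under 0.05, all lower, against 4.2% of the tested genes in either direction. For wild-type with TTX against wild-type untreated, the authors' deposited table had 20 of 61, all lower, against 5.75% in either direction, and all 20 were among the 24 that fell here. Of the 14 in knockdown, 11 were among those 24, the others being Kcnd2, Kcng1 and Kcns3. Kcnf1 had the smallest p in the authors' deposited table for wild-type (z = -5.555, p = 1.41e-08), followed by Kcnk2 (z = -4.30, p = 8.57e-06). In the authors' deposited table of 6 knockdown against 6 wild-type libraries, 7 of 61 had a p under 0.05 against 21.1% of the tested genes in either direction, led by Kcnj12 (z = -2.83, p = 0.00235).

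Outside these genes, 6 of 14 tested genes of the Kv1 and Kv3 families fell with TTX and none rose, with a median of -0.33. Over all genes tested, 7.54% were lower and 5.47% were higher in that comparison, with a median of 0.02. The 6 that fell were Kcna1 (-1.0) and Kcna4 (-0.77), Kv1 pores, Kcna6 (-0.43), the auxiliary Kcnab2 (-0.33), and the Kv3 genes Kcnc2 (-1.08) and Kcnc4 (-0.67). A list of 36 partners outside the Kcn names had 33 tested genes, of which 10 fell, against the same 7.54%, none rose and the median was -0.18. Besides Abcc8 these included the anchoring gene Akap7 (-0.37), the calmodulin gene Calm2 (-0.50), the BK subunit Lrrc55 (-0.50), Lgi1 (-0.65), Dlg4 (-0.29), and the pacemaker channels Hcn2 (-0.21), Hcn3 (-0.41) and Hcn4 (-0.29). Neither list is given on the neuron-marker scale, and the 6 cortical neuron markers had a median of -0.31 in the same comparison.

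Over the 12 libraries, the genes whose log2 values were most like those of Kcnip4 were Kcnf1 (Pearson r = 0.98), Arpp21 (0.97), Ngef (0.97) and Cabp1 (0.97), of all 12073 tested.

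The promoters of the tested members were searched for short motifs of factors that respond to neuronal activity. RefSeq promoter windows on GRCr8, 250 bases before to 50 after the start, were given for 36 of the 61 tested genes in 40 windows. Both strands were searched for the full CRE (TGACGTCA), its inner part (TGACG, which also lies in the full CRE), AP-1 (TGANTCA), MEF2 (CTA, then 4 bases of any kind, then TAG) and EGR (GCGNGGGCG). The full CRE was in 0% of the members' windows and in 1.83% of all windows in the table. The inner part was in 17.5% against 21.2%, AP-1 in 2.5% against 7.33%, MEF2 in 2.5% against 3.84%, and EGR in 15% against 4.98%. In the 15 windows of 13 lowered genes the full CRE and AP-1 were in 0%, the inner part in 13.3%, MEF2 in 6.67% and EGR in 13.3%. The EGR matches were in 6 of the 40 windows, 2 of them of lowered genes and 2 of Kcnt1, which rose. A match is a description of letters and says nothing of binding.

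Of 15 members that passed with TTX and had a window, 5 held a motif. Their windows are shown because they are the promoters of genes that moved where a match can be seen, 5′ to 3′ in the direction of the gene, with capitals marking the matches.
Kcng2, chr18:76083639-76083938, strand minus: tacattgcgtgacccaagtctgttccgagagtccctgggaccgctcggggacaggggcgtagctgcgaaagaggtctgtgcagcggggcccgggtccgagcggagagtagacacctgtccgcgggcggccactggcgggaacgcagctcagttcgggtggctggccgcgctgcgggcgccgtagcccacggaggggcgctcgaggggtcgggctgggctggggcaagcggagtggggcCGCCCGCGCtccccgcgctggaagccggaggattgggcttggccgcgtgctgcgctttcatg
Kcnj4, chr7:112954498-112954797, strand minus: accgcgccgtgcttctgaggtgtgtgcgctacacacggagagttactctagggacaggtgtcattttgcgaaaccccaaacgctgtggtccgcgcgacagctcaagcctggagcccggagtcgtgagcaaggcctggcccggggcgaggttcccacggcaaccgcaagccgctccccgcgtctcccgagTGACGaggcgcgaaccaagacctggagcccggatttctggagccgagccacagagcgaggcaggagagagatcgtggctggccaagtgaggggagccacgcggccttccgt
Kcnj9, chr13:87320244-87320543, strand minus: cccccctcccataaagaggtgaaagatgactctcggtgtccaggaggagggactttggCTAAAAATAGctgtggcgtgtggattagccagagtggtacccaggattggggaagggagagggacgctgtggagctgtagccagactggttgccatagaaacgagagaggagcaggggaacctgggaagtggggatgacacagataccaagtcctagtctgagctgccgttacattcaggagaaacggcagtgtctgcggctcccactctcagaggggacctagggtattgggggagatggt
Kcnq5, chr9:31891232-31891531, strand minus: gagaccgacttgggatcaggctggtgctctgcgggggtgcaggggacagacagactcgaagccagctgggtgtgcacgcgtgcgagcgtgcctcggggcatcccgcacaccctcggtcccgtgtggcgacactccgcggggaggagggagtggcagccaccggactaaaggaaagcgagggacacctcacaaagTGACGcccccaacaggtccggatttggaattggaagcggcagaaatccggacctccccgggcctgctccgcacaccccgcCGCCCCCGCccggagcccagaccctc
Kcnt1, chr3:29081089-29081388, strand plus: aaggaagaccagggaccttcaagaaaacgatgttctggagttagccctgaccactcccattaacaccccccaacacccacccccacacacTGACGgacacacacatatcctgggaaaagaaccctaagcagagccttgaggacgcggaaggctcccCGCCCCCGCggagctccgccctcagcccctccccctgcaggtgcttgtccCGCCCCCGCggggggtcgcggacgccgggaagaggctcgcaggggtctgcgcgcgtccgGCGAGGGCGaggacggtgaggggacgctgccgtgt

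Kcng2 holds 1 EGR match starting 12 bases before the start, and Kcnj4 holds 1 TGACG 61 bases before it. Kcnj9 holds 1 MEF2 match 192 bases before the start. Kcnq5 holds TGACG 56 bases before the start and an EGR match at base 25 after it. Kcnt1, the raised gene, holds TGACG 160 bases before the start and EGR matches 94 and 44 bases before it and at base 16. Its other window holds 1 EGR match and is not shown.

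The 15 genes not tested were Kcne1, Kcne3, Kcne4, Kcnh6, Kcnj1, Kcnj5, Kcnj8, Kcnj15, Kcnk16, Kcnk18, Kcnmb1, Kcnmb3, Kcnn4, Kcns1 and Kcnv2. Most were at or near 0 throughout. Kcnk16 read 24.0 in culture 3 of wild-type with TTX and 35.4 in the same culture untreated, and at most 3.68 in the other 10 libraries. Kcnmb3, Kcns1, Kcnn4 and Kcnh6 stayed at or below 11.1 in every library.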

How the data were processed

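Per the labels' protocols, 12 samples of total RNA were depleted of ribosomal RNA, and their libraries kept strand, ran 4 to a lane and were read from 1 end. The lane of each library is not stated. GSNAP, DESeq2, DESeq and rn6 are named, with no version, per the submitters' processing notes. The deposited signal, per the values base coverage over each RefSeq entry divided by the authors' size factors, was divided by the read length of 42 nt, itself read from the steps of low values. The authors' score was a z signed by direction, and whether the authors' deposited p-value was adjusted is not stated.

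The 18905 entries, 18697 of them distinct, covered 17339 symbols; the entry of highest mean stood for each. A gene needed a value of 10 in 3 or more libraries, and 12073 passed while 5266 did not. The log2(value + 1) entered limma 3.58.1 (R 4.3.3) over 12 libraries, two-sided, with Benjamini-Hochberg adjustment over the genes tested and a threshold of 0.05. TTX contrasts had 1 term per culture (genotype and number), leaving 4 residual degrees of freedom; knockdown contrasts and the interaction had the 4 groups alone, with 8. Same-numbered TTX and untreated libraries correlated in their deviations from group means by 0.78, 0.69 and 0.77 in knockdown and 0.44, 0.61 and 0.85 in wild-type; knockdown and wild-type libraries did not (-0.27 to -0.01). The labels do not state this pairing, and p-values measure spread over these cultures alone. Counting intervals were not computed from coverage. Fits were tested on simulated data.

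The genes, lists, tests and pairs were chosen with earlier results of these data known. Members past the threshold in any contrast, the member of highest mean in each subfamily, and those of smallest p are given in every library, except that some genes are not reported here. Promoters and gene spans came from RefSeq on GRCr8, searched with Python 3.11.15; all 76 symbols matched.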

Additional observations from a re-analysis of the deposited data

How the results depend on the processing

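Over both genotypes the count of 26 calls with TTX stayed between 19 and 37 under every alternative except groups alone with no replicate block (0) and leaving out culture 1 of the knockdown (5), culture 3 of the knockdown (12) or culture 3 of the wild-type (16). In wild-type the count of 9 became 15 with a pseudocount of 5, 1 with no filter on low values, 20 with a filter of 50, 22 with a mean trend and the robust option, 0 with no replicate block, 18 with the replicate block as a random effect, 29 on the scale of the neuron markers, and 1 to 3 without 1 culture. In knockdown the count of 2 became 4, 0, 13, 16, 0, 8 and 17 in the same order, 1 with quantile normalization, and 0 to 4 without 1 culture. The cause of these moves was not tested. Knockdown and interaction counts stayed at 0 under all alternatives run, the replicate block as a random effect, as culture averages and as a culture term included. Signs were followed for the genes given in every library, and for knockdown only for those of smallest p. Among these, on the scale of the neuron markers the TTX change reversed for Kcnk10 (0.23), and the knockdown difference for Kcnk10 (-0.14). Other members reversed on that scale too. There 30 of 61 TTX changes were below 0, against 43 on the authors' scale, and the median knockdown difference went from 0.17 to -0.22. Kcnrg reversed with quantile normalization (-0.015), without culture 1 of the knockdown (-0.017) and without culture 1 of the wild-type (-0.105), and Kcnj12 without culture 3 of the knockdown (-0.016) and culture 1 of the wild-type (-0.020). With 3 cultures a genotype, changes as small as those of most uncalled members are within the error of these fits, and levels near 10 read equivalents rest on few reads.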
